A study of Mus musculus with 4 samples.

Results

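Among splenic CD4 T cells that had been transferred into lymphocyte-deficient mice, 1302 of 12325 kept cells carried transcripts of both Sostdc1 and Id3 and none of Foxp3. They were chosen by these measured values: at least 1 unique molecular identifier (UMI, a tag that counts an RNA molecule once) of Sostdc1, at least 1 of Id3 and 0 of Foxp3. A cell was kept with 500 or more genes detected, a mitochondrial share of its UMIs up to 10%, a single T cell receptor beta contig and no more than 2 alpha contigs. The Sostdc1+ Id3+ cells were 659 of 5993 kept cells in mouse 1 (11.0%, 95% Clopper-Pearson interval 10.2 to 11.8) and 643 of 6332 in mouse 2 (10.2%, interval 9.42 to 10.9). They were set against the other kept cells with no Foxp3 UMI, 4415 in mouse 1 and 4543 in mouse 2, called the other Foxp3- cells here.

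Both mice were NOD.Rag1null hosts, which cannot make T or B cells of their own, so the T cells sequenced came from the transfer. Each host received column-purified CD4 T cells from the spleens of B6.H2g7 donors (strain B6.NOD-(D17Mit21-D17Mit10)/LtJ, C57BL/6 mice with the MHC region of the diabetes-prone NOD strain, 6 to 8 weeks old); the labels name 5000000 cells, 2 donors and 2 hosts and do not say whether the donors were pooled. Live CD4+ TCRβ+ cells were sorted from the host spleens 14 days later and read by 10x 5′ sequencing, with 1 gene expression and 1 receptor library per mouse. There was no untreated or untransferred group, so each comparison is between cells within a host. The 2 mice may have shared donors. With only 2 mice, the p-values rest mostly on a spread pooled over genes, not on each gene's own spread between mice. The study was about CD4 T cells whose receptors use Vβ3 (TRBV26), a segment that superantigens of endogenous mammary tumor viruses can stimulate or delete.

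Id3 is an inhibitor of E-protein transcription factors and restrains helper T cell differentiation, while Sostdc1 is a secreted antagonist of bone morphogenetic proteins that also modulates Wnt signals. In mice Sostdc1 has been described in a subset of follicular helper T cells, the CD4 cells that enter B cell follicles under the control of Bcl6 and help B cells through CD40L, IL-21 and IL-4. The hosts have no B cells, and no follicle was sampled here.

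The 2 genes that set the choice were abundant in most of the chosen cells. Sostdc1 had a median of 6 UMIs per Sostdc1+ Id3+ cell in mouse 1 and 5 in mouse 2, with a highest value of 62 and 45, and Id3 had a median of 3 in both mice. Summed over cells, Sostdc1 made up 1603 and 1296 CPM (UMIs of the gene per 1000000 UMIs) in Sostdc1+ Id3+ cells of mouse 1 and mouse 2, against 66.8 and 64.7 CPM in other Foxp3- cells. Id3 stood at 780 and 671 CPM in Sostdc1+ Id3+ cells, against 164 and 144 CPM in other Foxp3- cells. These differences were built in by the choice and were not tested.

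The cells were CD4 T cells by their own markers. Cd3e, a chain of the T cell receptor complex, was at 1355 and 1418 CPM in Sostdc1+ Id3+ cells and at 1550 and 1662 CPM in other Foxp3- cells. Cd4 was at 531 and 548 CPM in Sostdc1+ Id3+ cells, against 396 and 428 CPM in other Foxp3- cells, and Cd8a had 0 UMIs in both. Zbtb16, the factor that defines natural killer T cells, had 0 and 2 UMIs in the Sostdc1+ Id3+ cells of the 2 mice, and none of their receptors had the invariant natural killer T alpha chain. The median depth was 5477 and 6215 UMIs per Sostdc1+ Id3+ cell, against 5531 and 6160 per other Foxp3- cell. The upper quartile was 6468 and 7333 UMIs in Sostdc1+ Id3+ cells, against 7383 and 8014 in other Foxp3- cells, which held more deep cells. The median mitochondrial share was 2.35% and 2.57% in Sostdc1+ Id3+ cells, against 1.65% and 1.70% in other Foxp3- cells. The libraries shared 166 barcodes, 58 among kept cells, and no shared barcode was Sostdc1+ Id3+ in both.

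Because the receptors of these cells were sequenced in the same droplets, the choice can be read by lineage. The beta chain junctions (CDR3, 5′ to 3′) below belong to the clonotypes with the most Sostdc1+ Id3+ cells in each mouse. They are shown as examples of clonotypes that held both Sostdc1+ Id3+ and other Foxp3- cells. A clonotype is all cells of a mouse with the same beta V gene, J gene and CDR3 nucleotides. Lower case marks bases that match the end of the germline V segment or the start of the J segment (mouse chromosome 6, GRCm38), and capitals mark the bases between them.
Mouse 1, TRBV14 TRBJ2-4: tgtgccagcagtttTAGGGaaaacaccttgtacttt
Mouse 1, TRBV31 TRBJ1-4, clonotype A: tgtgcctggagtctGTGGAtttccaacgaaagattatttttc
Mouse 1, TRBV31 TRBJ1-4, clonotype B: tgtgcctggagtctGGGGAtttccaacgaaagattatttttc
Mouse 2, TRBV2 TRBJ2-2: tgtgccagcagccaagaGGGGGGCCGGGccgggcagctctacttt
Mouse 2, TRBV23 TRBJ2-3: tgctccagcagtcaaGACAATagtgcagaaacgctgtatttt
Mouse 2, TRBV12-2+TRBV13-2 TRBJ2-4: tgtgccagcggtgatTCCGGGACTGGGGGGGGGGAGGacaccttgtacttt

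Most of these clonotypes were large, and the Sostdc1+ Id3+ cells were a minority of their Foxp3- cells. In mouse 1 they were 8 of 87 cells of the TRBV14 clonotype, 8 of 220 of the TRBV31 clonotype A and 6 of 214 of clonotype B. Clonotypes A and B differed by the substitution T16G, counted from 1 at the first CDR3 base with clonotype A first, and had leading alpha chains that share the V gene TRAV21-DV12 but are not identical. In mouse 2 the Sostdc1+ Id3+ cells were 24 of 103 cells of the TRBV2 clonotype (23.3%) and 12 of 42 of the TRBV23 clonotype (28.6%). The TRBV12-2+TRBV13-2 clonotype of mouse 2, where the caller gave both V genes as a single call, stood apart with 11 of 15 (73.3%).

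Compared with the other Foxp3- cells, the Sostdc1+ Id3+ cells had more RNA of B cell help genes (Il4, Tnfsf8, Cd40lg, Il21), of the follicular helper factors Bcl6, Cebpa and Ascl2 and of the receptor Cxcr5. They had less RNA of the cytotoxic and inflammatory genes Ccl5, Ccl4, Ccl3, Gzmb and Prf1, and less of the proliferation genes. Of 12678 genes tested with edgeR's quasi-likelihood test on UMI sums per mouse, 4658 passed an adjusted p of 0.05 (36.7%), 2136 higher (16.8%) and 2522 lower (19.9%) in Sostdc1+ Id3+ cells. The median log2 fold change of all genes was 0.01, and 4648 of the 4658 called genes had the same sign in both mice. DESeq2 called 1913 genes, and the fit without the mouse as a block called 2740. Since so many genes passed, a gene list is read below against these percentages, with no test of the list itself.

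Il4, a cytokine that drives antibody class switching, had the largest increase on the log2 scale among the named genes. It was at 70.1 and 64.5 CPM in Sostdc1+ Id3+ cells of mouse 1 and mouse 2, against 6.92 and 8.90 CPM in other Foxp3- cells. The log2 fold change was 3.07 (SE 0.117, edgeR adjusted p 8.38e-21). Its transcript was nevertheless found in few of the cells. With every cell thinned to 3000 UMIs, Il4 was detected in 12% and 12.1% of Sostdc1+ Id3+ cells (17.3% and 18.4% before thinning), against 1.96% and 2.06% of other Foxp3- cells (2.79% and 3.32% before thinning). In Foxp3+ cells, which should lack it, the thinned share was 0.347% and 0.181% (median depth before thinning 6338 and 6598 UMIs). Thinning left out 51 and 22 Sostdc1+ Id3+ cells and 486 and 275 other Foxp3- cells that were shallower. Il4 and Tnfsf8 were listed as markers of these cells with earlier results known, so their direction is not independent evidence.

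Tnfsf8, the ligand of CD30, was by contrast detected in most Sostdc1+ Id3+ cells. It was at 622 and 647 CPM in Sostdc1+ Id3+ cells, against 184 and 202 CPM in other Foxp3- cells (log2 fold change 1.71, SE 0.0460, edgeR adjusted p 7.36e-25). Its thinned share was 72.7% and 72.3% of Sostdc1+ Id3+ cells, against 27.0% and 30.6% of other Foxp3- cells and 4.86% and 3.79% of Foxp3+ cells. Cd40lg, which encodes CD40L, was at 228 and 216 CPM in Sostdc1+ Id3+ cells and 101 and 118 CPM in other Foxp3- cells, a log2 fold change of 1.01. Il21 differed less, at 120 and 129 CPM in Sostdc1+ Id3+ cells against 92.4 and 79.4 CPM in other Foxp3- cells (log2 fold change 0.54, SE 0.0706, edgeR adjusted p 1.55e-07). Among TRBV26 cells alone Il21 had the opposite sign, a log2 fold change of -0.22 (edgeR adjusted p 0.0741).

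The cytokine and ligand genes did not all go the same way. Of 14 tested helper cytokines and ligands, 9 rose and 3 fell, with a median log2 fold change of 0.61. Besides those above, Tnfsf11 (RANKL) rose by 1.56 on the log2 scale, Lta by 1.31, Tnfsf14 (LIGHT) by 1.04, Tnf by 0.69 and Ltb by 0.52. Ifng fell, at 38.3 and 29.9 CPM in Sostdc1+ Id3+ cells against 177 and 155 CPM in other Foxp3- cells, a log2 fold change of -2.30. Il10 fell to 6 UMIs in all in Sostdc1+ Id3+ cells, against 1165 UMIs in other Foxp3- cells. The other Foxp3- cells also held more UMIs in total, so these counts are not a fold ratio. Il2 did not pass the test, at 2.97 and 7.60 CPM in Sostdc1+ Id3+ cells and 3.55 and 6.46 CPM in other Foxp3- cells (edgeR adjusted p 0.856).

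Il4 was found about as often in Sostdc1+ Id3+ cells with Il21 as in those without it. After thinning, 73 cells of mouse 1 and 75 of mouse 2 had Il4, 140 and 158 had Il21, and 15 and 19 had both. Il4 was found in 10.7% and 12% of Sostdc1+ Id3+ cells with Il21, and in 12.4% and 12.1% of those without. Il21 was found in 25.8% and 27.8% of those with Tnfsf8 and in 15.7% and 19.2% of those without. Ifng was found in only 2 Il4+ cells of each mouse. These shares are descriptions at 3000 UMIs per cell, where a gene present at a few copies is often missed.

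The follicular helper list, fixed with earlier results known, moved almost as a whole. Of its 16 tested genes 14 rose and 1 fell, with a median log2 fold change of 1.20, where 16.8% of all genes rose. Bcl6, the factor that directs follicular helper fate, was at 88.4 and 83.6 CPM in Sostdc1+ Id3+ cells and 32.4 and 28.8 CPM in other Foxp3- cells (log2 fold change 1.48, edgeR adjusted p 1.3e-16). Cxcr5, the receptor that guides cells to follicles, was at 141 and 127 CPM in Sostdc1+ Id3+ cells against 61.9 and 53.6 CPM in other Foxp3- cells (log2 fold change 1.20). Both genes were therefore higher by more than 1 on the log2 scale.

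Among the rest of that list, Ascl2, a factor that can induce Cxcr5, rose by 2.90 on the log2 scale at low levels, 13.2 and 6.62 CPM in Sostdc1+ Id3+ cells against 1.26 and 1.30 CPM in other Foxp3- cells. Cebpa rose by 2.15, Angptl2 by 1.71, Pou2af1 by 1.55, Cd200 by 1.44, Tox2 by 1.24 and Btla by 1.20. Slamf6, a homotypic adhesion receptor, was at 529 and 604 CPM in Sostdc1+ Id3+ cells and 248 and 254 CPM in other Foxp3- cells (log2 fold change 1.16). The costimulatory receptor gene Icos rose by 0.85. The inhibitory receptor gene Pdcd1 rose by 0.29 only, and by 0.07 (edgeR adjusted p 0.327) among cells with 4000 to 8000 UMIs. Maf, a factor for Il4 and Il21, fell by 0.15, and Sh2d1a did not pass the test.

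Transcription factors of other fates went in both directions. Tcf7, which encodes the stem-like and helper factor TCF-1, was at 1075 and 1081 CPM in Sostdc1+ Id3+ cells and 396 and 444 CPM in other Foxp3- cells (log2 fold change 1.35). Eomes, a factor of cytotoxic cells, was at 4.31 and 5.39 CPM in Sostdc1+ Id3+ cells, against 140 and 104 CPM in other Foxp3- cells (log2 fold change -4.64). Prdm1, the antagonist of Bcl6, fell by 4.06 on the log2 scale, Runx3 by 3.64 and Tbx21 (T-bet) by 1.70, while Gata3, the Th2 factor, rose by 0.64. Of the Id and E-protein genes other than Id3, Id2 fell by 0.46 and Tcf3 by 0.37, and Tcf12 rose by 0.20.

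The Th2 list did not rise with Il4: of 6 tested genes Il4 and Gata3 rose and the other 4 fell, among them the chemokine receptor gene Ccr8 (log2 fold change -1.93) and Ccr4 (-2.06). Of 7 Th17 genes 1 rose, the cytokine receptor gene Il1r1 (1.20), and 5 fell, among them Tmem176a and Tmem176b, neighbouring genes whose reads may overlap.

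The genes of naive and stem-like cells were divided. Of 14, 6 rose and 6 fell, with a median log2 fold change of -0.13; with 1 cell per clonotype 2 rose, and among TRBV26 cells alone 3 fell. Besides Tcf7, the rising genes included Lef1 (0.51), Il7r (0.47) and the chemokine receptor gene Ccr7 (0.59). Igfbp4, a gene of naive CD4 cells, fell to 2.43 and 10.5 CPM in Sostdc1+ Id3+ cells, against 75.3 and 119 CPM in other Foxp3- cells. Mouse 2 was the higher of the 2 in both groups.

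**Figure D1:**
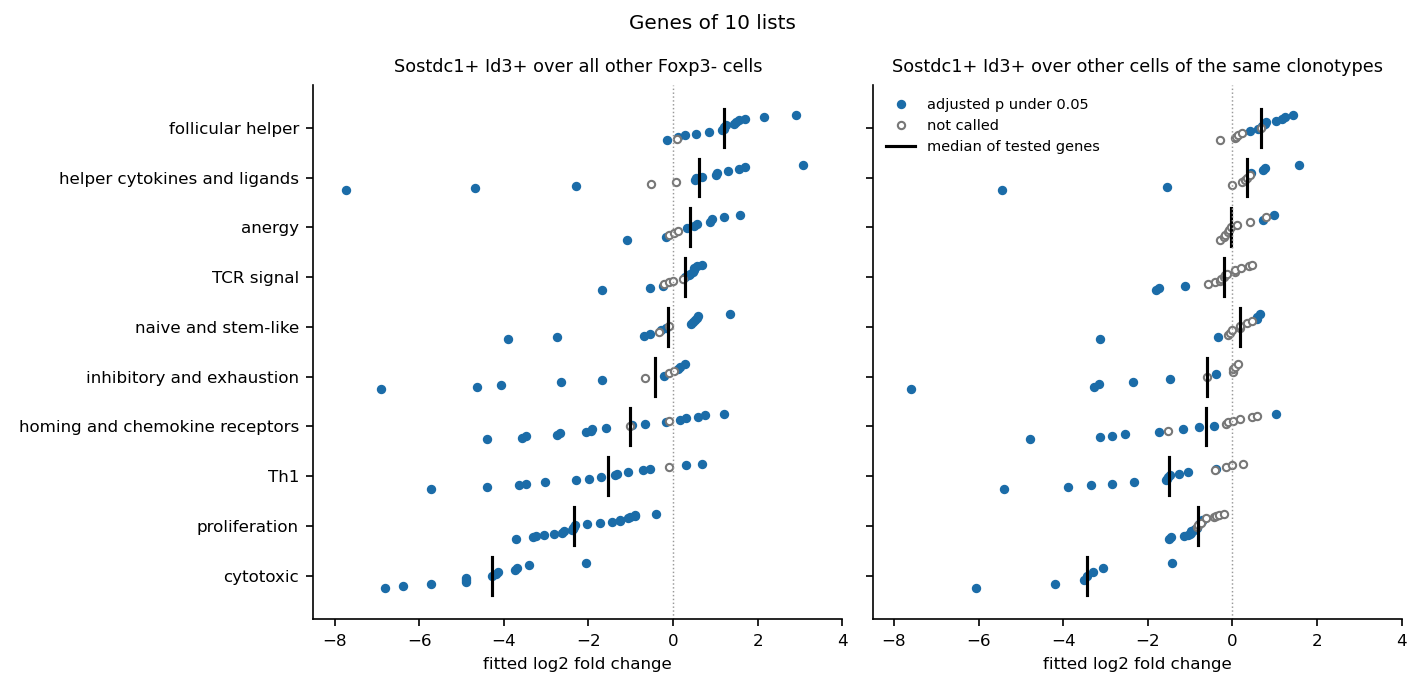
Fitted log2 fold change of each tested gene in 10 gene lists, for Sostdc1+ Id3+ cells over all other Foxp3- cells (left) and over 1 other Foxp3- cell of the same clonotype (right). Filled points passed an adjusted p of 0.05 and the bars are medians, 1.20 on the left and 0.68 on the right for the follicular helper list. Points with almost no UMIs in Sostdc1+ Id3+ cells (Csf2, Havcr2, Il10) depend on the fit and are not fold estimates.

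The inflammatory chemokine genes were far lower. Ccl5, which attracts T cells and monocytes, was the most abundant of them, at 300.3 and 285 CPM in Sostdc1+ Id3+ cells, against 15373 and 14991 CPM in other Foxp3- cells (log2 fold change -5.71, SE 0.0508, edgeR adjusted p 3.49e-39). Ccl4 was at 17 and 14 CPM in Sostdc1+ Id3+ cells against 1276 and 1267 CPM in other Foxp3- cells, and Ccl3 at 10.2 and 8.58 CPM in Sostdc1+ Id3+ cells against 468 and 510 CPM in other Foxp3- cells. Ccl3 and Ccl4 have close copies in the mouse genome, so reads may have been split between them.

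All 13 tested cytotoxic genes fell, with a median log2 fold change of -4.29, where 19.9% of all genes fell. Gzmb, which encodes granzyme B, was at 6.47 and 6.62 CPM in Sostdc1+ Id3+ cells, against 190 and 199 CPM in other Foxp3- cells (log2 fold change -4.90). Prf1 (perforin) was at 1.62 and 1.96 CPM in Sostdc1+ Id3+ cells against 55.2 and 51.3 CPM in other Foxp3- cells, and Nkg7, a granule gene, at 103 and 133 CPM in Sostdc1+ Id3+ cells against 2216 and 2371 CPM in other Foxp3- cells. Of 16 Th1 genes 13 fell and 2, Stat4 and Tnf, rose, with a median of -1.53. Cxcr3 did not pass, at 287 and 282 CPM in Sostdc1+ Id3+ cells and 326 and 280 CPM in other Foxp3- cells.

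Inhibitory receptors split by kind. Havcr2, which encodes TIM-3, had 2 UMIs in all 1302 Sostdc1+ Id3+ cells against 1872 UMIs in other Foxp3- cells, a ratio 123-fold lower with a counting interval of 33.9 to 1013. Lag3 was at 106 and 146 CPM in Sostdc1+ Id3+ cells, against 405 and 395 CPM in other Foxp3- cells (log2 fold change -1.68). Entpd1 (CD39) fell by 2.65, and Tigit by 0.22. Cd160 and Cd101 did not pass the test. Of the 12 genes of that list 6 fell and 3 rose; the risers were Pdcd1, Tox and Ctla4, the last 2 by 0.12 and 0.16, and DESeq2 called 1 of the 3.

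Genes linked to anergy, a hyporesponsive state of T cells, included some of the more abundant increases. Izumo1r, which encodes folate receptor 4, was at 1349 and 1378 CPM in Sostdc1+ Id3+ cells, against 431 and 467 CPM in other Foxp3- cells (log2 fold change 1.59, SE 0.0423, edgeR adjusted p 5.44e-25). Nt5e (CD73) was at 82.2 and 86.8 CPM in Sostdc1+ Id3+ cells and 34.4 and 37.8 CPM in other Foxp3- cells, a log2 fold change of 1.21. Rnf128 (GRAIL) rose by 0.92 and Nrp1 by 0.88, while Cblb fell by 0.16 and Ndrg1 by 1.08. In all, 7 of 12 rose and 2 fell, with a median of 0.41, and among TRBV26 cells alone 4 rose. Izumo1r is also high in regulatory T cells, and was at 1164 and 1153 CPM in Foxp3+ cells.

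Genes induced by receptor signals differed by small amounts. Of 15, 8 rose and 3 fell, with a median of 0.29; DESeq2 called 4 higher and 2 lower, and among TRBV26 cells alone 2 were higher and 4 lower. Egr1, an early response factor, was at 135 and 150 CPM in Sostdc1+ Id3+ cells and 84.7 and 91.3 CPM in other Foxp3- cells (log2 fold change 0.68). Nfatc1 rose by 0.50, Egr2 by 0.50 and Batf by 0.39. Nr4a2 went the other way, at 22.1 and 15.7 CPM in Sostdc1+ Id3+ cells against 58.6 and 59.7 CPM in other Foxp3- cells (-1.67).

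Since Sostdc1 acts on bone morphogenetic protein and Wnt signals, the genes of those pathways were examined. Of 12 tested, 4 rose and 3 fell, with a median of 0.32, and DESeq2 called 1 of 11 lower. Bmp7, a ligand, was at 44.5 and 40.0 CPM in Sostdc1+ Id3+ cells against 23.8 and 19.9 CPM in other Foxp3- cells (log2 fold change 0.94, edgeR adjusted p 4.63e-09), but the difference among TRBV26 cells alone was 0.23 (edgeR adjusted p 0.229). Axin2, a target of Wnt signals, rose by 0.89, Smad1 by 0.83 and Smad5 by 0.42. Smad7, the inhibitory Smad, fell by 2.01, and Ctnnb1 by 0.23. The receptor gene Bmpr1a had 2 UMIs in all in Sostdc1+ Id3+ cells, against 86 in other Foxp3- cells. Scaled to total UMIs this was 5.63-fold lower, with a counting interval of 1.51 to 47.3.

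Cell division genes were lower: all 22 tested fell, with a median of -2.33. Among cells with 4000 to 8000 UMIs, 17 of the 22 fell and 1 rose. Mki67 was at 33.7 and 15.9 CPM in Sostdc1+ Id3+ cells, against 154 and 98.8 CPM in other Foxp3- cells (log2 fold change -2.38). Ube2c fell by 3.71 and Stmn1 by 2.37. Without any cell that had a UMI of Mki67 or Top2a, 3368 genes were called, and all 13 cytotoxic genes fell, while of 20 proliferation genes 9 fell and 1 rose. Of 15 glycolysis genes 8 fell, with a median of -0.20; Ldha fell by 0.64. Interferon response genes were divided, 3 of 13 higher and 4 lower; Ifi27l2a and Oasl2 rose by 0.79, and Ifit3 fell by 1.49. Genes of tissue dissociation stress (4 of 12 higher, 2 lower) and apoptosis (3 of 13 higher, 5 lower) had medians of 0.07 and -0.08.

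Homing receptors changed widely. Of 19, 12 fell and 5 rose, with a median of -1.01, and DESeq2 called 3 of the list higher. Selplg, the ligand of selectins, was at 185 and 179 CPM in Sostdc1+ Id3+ cells, against 520 and 555 CPM in other Foxp3- cells (log2 fold change -1.58). Cxcr6 fell by 3.47, Ccr2 by 3.56 and Itga4 by 0.97, whereas Cxcr5, Ccr7 and Cxcr4 (0.75) rose. In the SLAM family 3 of 8 rose and 3 fell: Slamf6 rose, as did Cd84 by 0.30, whereas Slamf7 fell by 3.04 and Slamf1 by 1.21. Of 12 regulatory T cell genes other than Foxp3, 6 rose and 6 fell; Il2ra, the receptor of IL-2 that marks regulatory cells, fell to 3.24 and 1.47 CPM in Sostdc1+ Id3+ cells, against 8.93 and 9.72 CPM in other Foxp3- cells, and Capg fell by 1.02.

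Markers of other cell types moved as well. Myeloid markers summed to 12.7 and 5.15 CPM in Sostdc1+ Id3+ cells, against 69.8 and 47.6 CPM in other Foxp3- cells; 7 of 8 tested fell, and C1qc, Csf1r and Fcgr1 were at 0 in Sostdc1+ Id3+ cells. Dendritic cell markers summed to 101 and 91.0 CPM in Sostdc1+ Id3+ cells, against 150 and 153 CPM in other Foxp3- cells, and 5 of 6 fell. The B cell markers Cd79a, Ms4a1 and Ebf1 were at 0 in Sostdc1+ Id3+ cells; of the 5 tested, Ighm rose by 0.44, Pax5 (10 UMIs in Sostdc1+ Id3+ cells) also rose and Igkc fell. Natural killer markers were lower in 4 of 5 tested, with Klrb1c (1.63) the exception, and Klre1 had 3 UMIs in Sostdc1+ Id3+ cells against 689 in other Foxp3- cells, 30.1-fold lower with a counting interval of 10.3 to 146. Erythroid markers fell in 3 of 4 and gamma delta markers in both of those tested. Of 5 invariant NKT genes Klrb1c, Gata3 and Egr2 rose and Slamf1 fell. Without cells carrying a UMI of an antigen-presenting cell gene, 4379 genes were called, and among cells with 1 to 3% mitochondrial UMIs 4222 were called; in both settings 13 or 14 of the 16 follicular helper genes rose.

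Some of the largest increases were in genes of less familiar roles. Padi4, which converts arginine to citrulline in proteins, was at 25.3 and 21.3 CPM in Sostdc1+ Id3+ cells and 2.91 and 2.76 CPM in other Foxp3- cells (log2 fold change 3.02). Cebpd rose by 2.21 and Fbn2, a fibrillin gene, by 2.15. A330093E20Rik (2.89) and Gm9885 (2.07) are antisense to other genes, and the sources used here do not say whether counting used strand. Among the largest decreases were also 1500009L16Rik, with 5 UMIs in Sostdc1+ Id3+ cells against 1418 in other Foxp3- cells, and the adaptor gene Pik3ap1, with 6 UMIs. These counts are not scaled to the larger total of the other Foxp3- cells.

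The genes that chose the cells and the leading helper genes lie at separate places in the mouse genome (GRCm38). Sostdc1 is on chromosome 12 (36314139 to 36318452, plus strand) and Il4 on chromosome 11 (53602982 to 53618669, minus strand). Id3 and Tnfsf8 are both on chromosome 4 (136143497 to 136145755, plus strand, and 63831308 to 63861347, minus strand).

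The Foxp3- cells were also split by both genes, to describe which levels went with Sostdc1 and which with Id3. The 4 classes held 659 and 643 cells with both, 320 and 359 with Sostdc1 only, 1106 and 1209 with Id3 only, and 2989 and 2975 with neither. Il4 was at 70.1 and 64.5 CPM with both, 30.0 and 21.7 CPM with Sostdc1 only, 12.2 and 20.5 CPM with Id3 only and 2.8 and 2.7 CPM with neither. Il4 was therefore highest where both were detected, in both mice.

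Ccl5 ordered the classes differently. It was at 300.3 and 285 CPM with both, 5302 and 6169 CPM with Sostdc1 only, 1806 and 1599 CPM with Id3 only, and 21552 and 21510 CPM with neither. Bcl6 was close with both (88.4 and 83.6 CPM) and with Sostdc1 only (83.4 and 73.9 CPM), and lower with Id3 only (44.7 and 43.3 CPM) and neither (23.0 and 18.0 CPM). Cells with Sostdc1 only thus had Bcl6 near the level of Sostdc1+ Id3+ cells and more Ccl5 than they had, in both mice. Mki67 was lowest with both, and highest among the Foxp3- classes with neither. These levels were not tested between classes, apart from the comparison with Id3-only cells below.

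**Figure D2:**
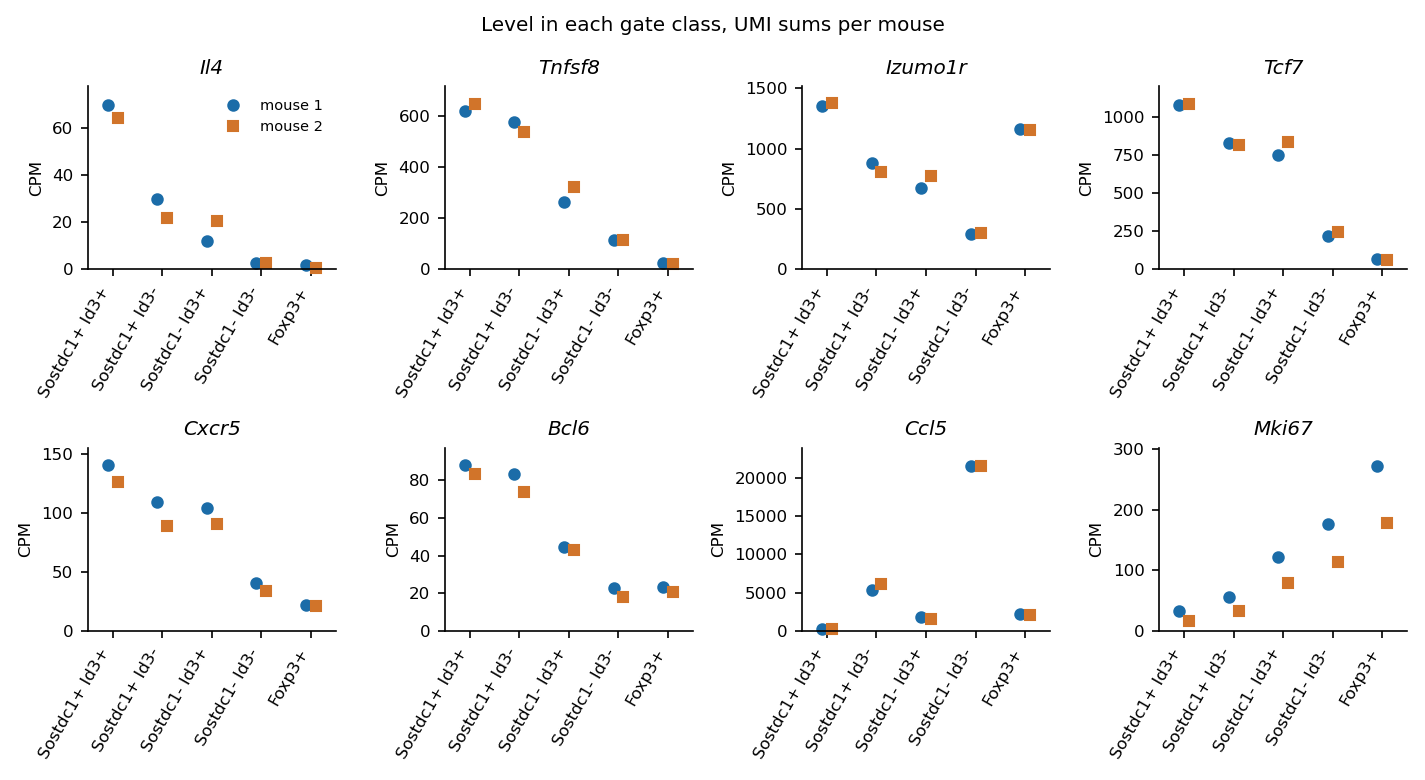
CPM of 8 genes in the 4 classes of Foxp3- cells by Sostdc1 and Id3 detection and in Foxp3+ cells, from UMIs summed per mouse (1 point for each mouse, no error bars). Il4 is highest in Sostdc1+ Id3+ cells, at 70.1 and 64.5 CPM, and Ccl5 is lowest in Sostdc1+ Id3+ cells.

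The choice rested on detection, so the cells near its edge were described separately. Cells just inside, with 1 UMI of each gene, were 29 in mouse 1 and 20 in mouse 2. Their Tnfsf8 level was 563 and 262 CPM, against 392 and 235 CPM in cells with 1 Sostdc1 UMI and no Id3 (94 and 113 cells), and 240 and 279 CPM in cells with no Sostdc1 and 1 Id3 UMI (358 and 416 cells). Their Ccl5 level was 634 and 5299 CPM, so the few cells just inside differed between mice. Il4 had 0 UMIs in them. With 1, 2 to 5 and at least 6 Sostdc1 UMIs (115 and 98, 207 and 226, 337 and 319 Sostdc1+ Id3+ cells), Tnfsf8 was at 527 and 499, 562 and 609, and 689 and 714 CPM.

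A Sostdc1 UMI was also found in other kinds of barcode. After thinning, it was in 1 of 13 and 2 of 20 barcodes with macrophage complement genes and no receptor contig (median depth 5961 and 9258 UMIs), and in 2.20% and 1.99% of Foxp3+ cells. No expression is read from those shares. It was in 5.80% and 5.88% of other Foxp3- cells, through the Sostdc1-only class, whose median was 3.5 and 3 Sostdc1 UMIs per cell before thinning. How many of the Sostdc1+ Id3+ cells with 1 Sostdc1 UMI carried free RNA was not tested. With at least 2 UMIs of each gene required, 4116 genes were called.

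Setting the Sostdc1+ Id3+ cells against Id3-only cells narrows the difference in Id3, which was at 780 and 671 CPM in Sostdc1+ Id3+ cells and 623 and 525 CPM in Id3-only cells. Of 11155 genes 2593 passed (23.2%), 1067 higher (9.57%) and 1526 lower (13.7%). All 16 follicular helper genes rose, with a median of 0.73, including Pdcd1, at 430 and 440 CPM in Sostdc1+ Id3+ cells and 260 and 245 CPM in Id3-only cells (log2 fold change 0.77). Il21 was at 120 and 129 CPM in Sostdc1+ Id3+ cells, against 66.8 and 59.7 CPM in Id3-only cells (log2 fold change 0.97, edgeR adjusted p 2.55e-21). Il4 (2.00) and Padi4 (1.93) were again among the largest increases, with Hs6st3 (1.76), a heparan sulfate enzyme gene.

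Against Id3-only cells, 10 of 14 naive and stem-like genes fell and 2 rose, with Igfbp4 lower by 3.82 on the log2 scale and Tcf7 (0.43) and Bcl2 (0.16) higher. All 13 cytotoxic genes fell (median -2.90), among them Gzma by 4.19, as did all 22 proliferation genes (median -1.89). Between 4000 and 8000 UMIs, however, 2 of 18 proliferation genes fell. Ifitm1, an interferon-induced membrane protein gene, was at 30.2 and 0.490 CPM in Sostdc1+ Id3+ cells, against 319 and 385 CPM in Id3-only cells; it differed between mice among the Sostdc1+ Id3+ cells. Ifitm3 fell by 4.87 and the MHC class II gene H2-Eb1 had a log2 fold change of -4.26. Lag3 did not pass (0.04, edgeR adjusted p 0.736). DESeq2 called 554 genes in this comparison, among them 10 of the 16 follicular helper genes as higher and 6 of the 14 naive and stem-like genes as lower, and a choice made after thinning to 3000 UMIs called 724.

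The repertoire of the Sostdc1+ Id3+ cells leaned to TRBV26 (Vβ3) and TRBV23 (Vβ20). TRBV26 was used by 54.6% and 54.0% of Sostdc1+ Id3+ cells (intervals 50.7 to 58.5 and 50 to 57.9), against 35.0% and 29.9% of other Foxp3- cells (33.6 to 36.5 and 28.6 to 31.3). TRBV23 was used by 25.9% and 21.8% of Sostdc1+ Id3+ cells and 16.0% and 11.0% of other Foxp3- cells. Intervals cover counting error only, and with 2 mice an exact permutation test of a share cannot go below 0.5. Between the classes, TRBV26 was used by 46.6% and 46.7% of Id3-only cells, 46.9% and 34.3% of Sostdc1-only cells, 29.5% and 22.6% of cells with neither and 19.3% and 22.2% of Foxp3+ cells.

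Counting cells and counting clonotypes gave different calls. By cells, edgeR called 1 of 21 V genes (4.76%), TRBV29, with 3 and 0 Sostdc1+ Id3+ cells against 66 and 374 other Foxp3- cells. By clonotypes it called 11 of 21 (52.4%), 2 higher (9.52%) and 9 lower (42.9%). TRBV23 clonotypes were more frequent by 0.49 on the log2 scale (edgeR adjusted p 0.000832) and TRBV26 clonotypes by 0.36 (edgeR adjusted p 0.0168), and the other 9 were less frequent, among them TRBV10 (-2.66), TRBV1 (-1.81), TRBV2 (-1.79) and TRBV12-2+TRBV13-2 (-1.07). V genes were counted as shares of all clonotypes, so higher shares of TRBV26 and TRBV23 lower the shares of the others together. The 9 lower calls are therefore not separate results. By cells TRBV26 differed by 0.75 (SE 0.263, edgeR adjusted p 0.105). TRBV29 was not called by clonotypes (-0.87, edgeR adjusted p 0.596); its 374 other Foxp3- cells of mouse 2 came from 10 clonotypes.

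Sostdc1+ Id3+ cells were more often alone in their clonotype than other Foxp3- cells, but about as often as the Id3-only cells among these. Of Sostdc1+ Id3+ cells 56.0% and 55.2% were the single cell of a clonotype, against 37.0% and 37.8% of other Foxp3- cells. This share was 52.9% and 56.2% of Id3-only cells, 42.8% and 38.4% of Sostdc1-only cells and 30.5% and 30.3% of cells with neither. Clonotypes of at least 10 cells held 9.86% and 14.8% of Sostdc1+ Id3+ cells, against 30.7% and 36.1% of other Foxp3- cells. They held 14.6% and 13.3% of Id3-only cells. A Foxp3+ cell shared the clonotype of 6.07% and 3.73% of Sostdc1+ Id3+ cells, against 19.4% and 25.2% of other Foxp3- cells. Among Id3-only cells it was 10.3% and 8.02%. These shares were not tested between classes. The 659 and 643 cells came from 571 and 510 clonotypes, of which 521 and 449 had a single Sostdc1+ Id3+ cell.

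The share of Sostdc1+ Id3+ cells was next split by V gene and clonotype size, with no test. Among Foxp3- TRBV26 cells, 21.6% and 22.5% of single-cell clonotypes were Sostdc1+ Id3+, against 8.00% and 4.31% of cells in clonotypes of at least 10. Among cells with neither TRBV26 nor TRBV23 the order was not the same: 3.08% and 4.41% of single-cell clonotypes, 11.1% and 8.06% of cells in clonotypes of 2 to 9, and 4.38% and 4.95% in those of at least 10. Over all sizes the share was 18.9% and 20.3% of Foxp3- TRBV26 cells, 19.5% and 21.9% of TRBV23 cells and 5.59% and 5.49% of cells with other V genes.

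**Figure D3:**
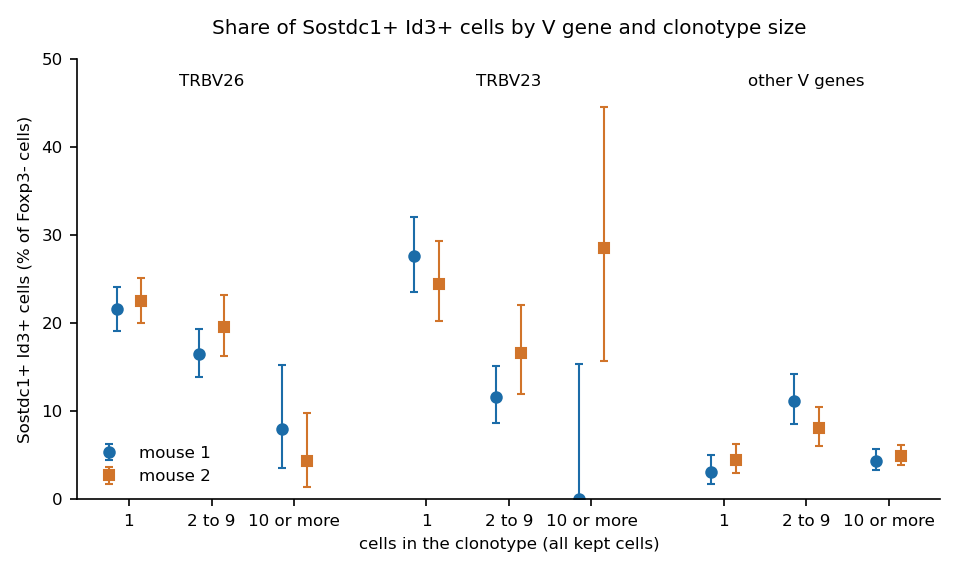
Percent of Foxp3- cells that were Sostdc1+ Id3+, by V gene class and by the number of kept cells in the clonotype, for each mouse, with 95% Clopper-Pearson intervals (counting error only). TRBV26 single-cell clonotypes stand at 21.6% and 22.5% and those of other V genes at 3.08% and 4.41%; TRBV23 clonotypes of at least 10 cells rest on few cells.

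Few of the larger clonotypes consisted mostly of Sostdc1+ Id3+ cells. Among clonotypes of at least 5 Foxp3- cells, 70 of 109 in mouse 1 and 48 of 85 in mouse 2 had no Sostdc1+ Id3+ cell. In 2 of these clonotypes of mouse 1 and 4 of mouse 2, more cells were Sostdc1+ Id3+ than not; these were picked after their values were seen. Of these, 1 in mouse 1 and 2 in mouse 2 had the TRBV12-2+TRBV13-2 call, out of 9 and 13 such clonotypes of that size, and 1 and 2 had TRBV26, out of 29 and 16. Besides the TRBV12-2+TRBV13-2 junction of mouse 2 printed above, they had the following junctions, shown because these clonotypes are mostly Sostdc1+ Id3+.
Mouse 1, TRBV12-2+TRBV13-2 TRBJ2-4, 5 of 5 cells: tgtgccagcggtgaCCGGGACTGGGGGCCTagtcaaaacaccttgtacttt
Mouse 1, TRBV26 TRBJ1-1, 4 of 5 cells: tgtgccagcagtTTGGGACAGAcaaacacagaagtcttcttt
Mouse 2, TRBV12-2+TRBV13-2 TRBJ2-5, 6 of 7 cells: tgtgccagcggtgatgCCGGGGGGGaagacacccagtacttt
Mouse 2, TRBV26 TRBJ2-4, 5 of 5 cells: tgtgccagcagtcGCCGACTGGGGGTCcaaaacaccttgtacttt
Mouse 2, TRBV26 TRBJ2-3, 3 of 5 cells: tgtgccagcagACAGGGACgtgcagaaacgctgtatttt

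A Foxp3- clonemate of a Sostdc1+ Id3+ cell was itself Sostdc1+ Id3+ in 6.82% of pairs in mouse 1 and 19.8% in mouse 2, against 3.81% and 1.92% for a clonemate of another Foxp3- cell. The mouse 2 value includes the TRBV2 clonotype with 24 such cells. Counting pairs gives large clonotypes the most weight. Of all Foxp3- cells, in clonotypes of any size, 13.0% and 12.4% were Sostdc1+ Id3+. Receptors were also matched between mice by V gene, J gene and CDR3 amino acids, not nucleotides. Those found in both mice were 13 among the 564 and 506 receptors of Sostdc1+ Id3+ cells (2.30% and 2.57%). Among the 2240 and 2229 receptors of other Foxp3- cells they were 96 (4.29% and 4.31%). A larger set in the other mouse gives more matches, so these percentages do not compare sharing between the groups. The CDR3 of TRBV26 Sostdc1+ Id3+ clonotypes averaged 13.9 ± 1.01 codons in mouse 1 and 13.8 ± 1.1 in mouse 2 (SD over clonotypes), against 13.8 and 13.9 codons among other Foxp3- clonotypes. A second alpha contig was found in 14.0% and 13.2% of Sostdc1+ Id3+ cells and in 12.1% and 9.16% of other Foxp3- cells.

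**Figure D4:**
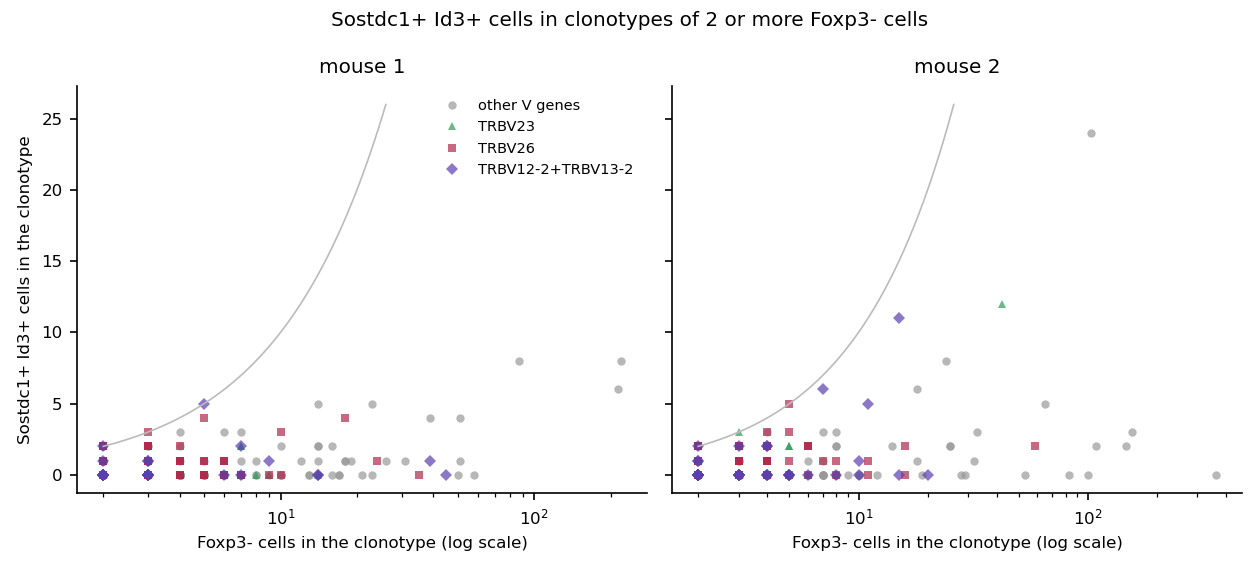
Number of Sostdc1+ Id3+ cells in each clonotype of at least 2 Foxp3- cells, against the number of Foxp3- cells (log scale), by V gene. The grey curve marks clonotypes made up of Sostdc1+ Id3+ cells alone; the TRBV2 clonotype of mouse 2 has 24 of 103 and the TRBV12-2+TRBV13-2 clonotype 11 of 15.

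Because 180 clonotypes of mouse 1 and 133 of mouse 2 held both kinds of cell, Sostdc1+ Id3+ cells could be compared with other Foxp3- cells with the same beta chain, taking 1 cell of each kind per clonotype. Of 8432 genes 606 passed (7.19%), 240 higher (2.85%) and 366 lower (4.34%), and 591 of the 606 were also called in the same direction among all cells; the 2 comparisons share cells. In this fit edgeR shrank all genes' spreads to a common trend, so its smallest p-values rest on that trend. DESeq2 called 47 genes, and the fit without the mouse as a block called 182.

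Some of the helper differences, and the lower Ccl5, were present within clonotypes. Of 11 helper cytokines and ligands tested there, 4 rose, 2 fell and 5 were not called. Il4 was at 45.7 and 74.7 CPM in Sostdc1+ Id3+ cells, against 9.14 and 33.8 CPM in their clonemates (log2 fold change 1.56, edgeR adjusted p 4.32e-07). It did not pass in the fit without the mouse as a block. Tnfsf8 was at 533 and 737 CPM in Sostdc1+ Id3+ cells and 329 and 436 CPM in clonemates (log2 fold change 0.73). Ccl5 was at 302 and 142 CPM in Sostdc1+ Id3+ cells, against 10878 and 7998 CPM in clonemates (log2 fold change -5.41). The 3 genes thus differed in the same direction within clonotypes as among all cells, with smaller log2 fold changes.

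Of 15 follicular helper genes 9 rose within clonotypes, with a median of 0.68, while DESeq2 called 1 of 13 and the fit without the block 6 of 15; Bcl6 rose by 1.25, Cxcr5 by 1.02, Slamf6 by 0.71 and Icos by 0.42. Il21 did not pass (0.23, edgeR adjusted p 0.483), nor did Cd40lg (0.34, edgeR adjusted p 0.101) or Pdcd1 (0.06, edgeR adjusted p 0.868). Tcf7 rose by 0.66 and Izumo1r by 0.72, whereas Padi4 did not pass, at 27.8 and 18.1 CPM in Sostdc1+ Id3+ cells and 27.4 and 9.33 CPM in clonemates. All 7 tested cytotoxic genes fell (median -3.43), as did 12 of 16 Th1 genes (median -1.5); DESeq2 called 6 of 6 cytotoxic and 3 of 11 Th1 genes lower. Havcr2 had 0 UMIs in Sostdc1+ Id3+ cells against 50 in clonemates, at least 15.7-fold lower against a floor of 3 UMIs over both mice.

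The largest increases within clonotypes were Gab2, an adaptor gene (log2 fold change 2.06), Slc9b2 (1.90), Tnfrsf13b, which encodes the receptor TACI (1.90), Rcan1, an inhibitor of calcineurin (1.64), and Il4. Of 15 receptor signal genes 3 fell within clonotypes, the nuclear receptor genes Nr4a1 (-1.80), Nr4a2 (-1.13) and Nr4a3 (-1.73), with a median of -0.20; DESeq2 called 0 of 9 and the fit without the block 1. Among all cells 8 of these genes had risen, Nr4a1 by 0.38 among them. Of 11 anergy genes Izumo1r and Nt5e (0.97) rose. Proliferation differed between the mice. Mki67 was at 94.3 and 15.7 CPM in Sostdc1+ Id3+ cells, against 69.5 and 171 CPM in clonemates, a log2 fold change of 0.44 in mouse 1 and -3.37 in mouse 2. Of 22 proliferation genes 14 fell (median -0.82), but DESeq2 called 0 of 13, with 7 at an unadjusted p below 0.05, and the fit without the block called 5 of 22.

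Within the Sostdc1+ Id3+ cells, 360 in mouse 1 and 347 in mouse 2 carried Vβ3 and 299 and 296 did not. Few genes separated them: 61 of 9494 passed (0.643%), 12 higher (0.126%) and 49 lower (0.516%) in Vβ3 cells. Of the 16 follicular helper genes edgeR called 0, with 11 at an unadjusted p below 0.05 and a median of -0.09, and DESeq2 called 0. Tnfsf8 was at 617 and 602 CPM in Vβ3 cells and 627 and 701 CPM in other Sostdc1+ Id3+ cells (edgeR adjusted p 0.843).

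The genes that passed were mostly lower with Vβ3. Hs6st3 was at 5.59 and 7.25 CPM in Vβ3 Sostdc1+ Id3+ cells, against 55.7 and 61.9 CPM in other Sostdc1+ Id3+ cells (log2 fold change -3.16, edgeR adjusted p 2.32e-07). Nkg7 was at 64.0 and 45.3 CPM in Vβ3 cells against 148 and 237 CPM in the others (-1.80), and Ifng fell by 1.11. Ctla2a, a protease inhibitor gene, fell by 2.83, Tprg by 2.37, Susd2 by 2.33 and Cacna1d, a calcium channel gene, by 2.14. Of 15 Th1 genes 5 fell: Ifng, Il18r1, Il18rap, Bhlhe40 and Cxcr3; DESeq2 called 0 of 16, with 5 at an unadjusted p below 0.05. Gstp2, a glutathione transferase gene with close copies, was at 200 and 303 CPM in Vβ3 cells and 126 and 154 CPM in the others (0.86), and Izumo1r rose by 0.30. Slc45a4 (1.02), Rnf43 (0.90), A330093E20Rik (0.90) and Tmem181a (0.75) passed with edgeR and not with DESeq2, which called 10 genes.

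TRBV23 Sostdc1+ Id3+ cells resembled TRBV26 ones for several of these genes, but not for all. Hs6st3 was at 5.6 and 7.3 CPM in TRBV26 cells, 5.1 and 15.3 CPM in TRBV23 cells (171 and 140 cells), and 122 and 101 CPM in cells with other V genes (128 and 156 cells). Gstp2 was at 200 and 303 CPM in TRBV26 cells, 190 and 262 CPM in TRBV23 cells and 43.7 and 64.7 CPM in the rest. Il4 was at 62.5 and 47.1, 52.7 and 49.3, and 113 and 115 CPM in the same order, so its level was highest among cells with neither V gene. Nkg7 was at 64.0 and 45.3, 51.7 and 120, and 273 and 335 CPM. For other genes the resemblance was weaker or absent. Slc45a4 was at 32.5 and 37.2, 20.3 and 17.6, and 13.3 and 17.6 CPM in that order. Tmem181a was at 56.9 and 63.5, 23.3 and 42.2, and 34.5 and 46.0 CPM. Ifng was at 28.5 and 15.9, 49.7 and 35.2, and 49.0 and 55.8 CPM. These values were split after the comparison was seen and were not tested.

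The difference between Sostdc1+ Id3+ and other Foxp3- cells was itself smaller among Vβ3 cells for several helper genes. A test of that difference called 145 of 11554 genes (1.25%), 21 higher (0.182%) and 124 lower (1.07%) with Vβ3. Tnfsf8 was at 617 and 602 CPM in Vβ3 Sostdc1+ Id3+ cells and 260 and 318 CPM in other Vβ3 Foxp3- cells, while without Vβ3 it was at 627 and 701 CPM in Sostdc1+ Id3+ cells and 146 and 155 CPM in other Foxp3- cells. Izumo1r was at 1472 and 1501 CPM in Vβ3 Sostdc1+ Id3+ cells and 660 and 773 CPM in other Vβ3 Foxp3- cells, and without Vβ3 at 1210 and 1233 CPM in Sostdc1+ Id3+ cells and 317 and 343 CPM in other Foxp3- cells. For both genes the gap between V classes was wider among the other Foxp3- cells, which had more with Vβ3.

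Il21 was lower in Sostdc1+ Id3+ than in other Foxp3- cells of both mice with Vβ3, and higher without. It was at 121 and 98.8 CPM in Vβ3 Sostdc1+ Id3+ cells and 137 and 119 CPM in other Vβ3 Foxp3- cells, and without Vβ3 at 119 and 166 CPM in Sostdc1+ Id3+ cells and 70.0 and 63.6 CPM in other Foxp3- cells. The log2 fold changes differed by -1.29 between the V classes for Il21, by -1.02 for Tnfsf8 and by -0.79 for Izumo1r. Without the mouse as a block edgeR called 0 of the 11554 genes, with 736 at an unadjusted p below 0.05, and DESeq2 called 92.

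**Figure D5:**
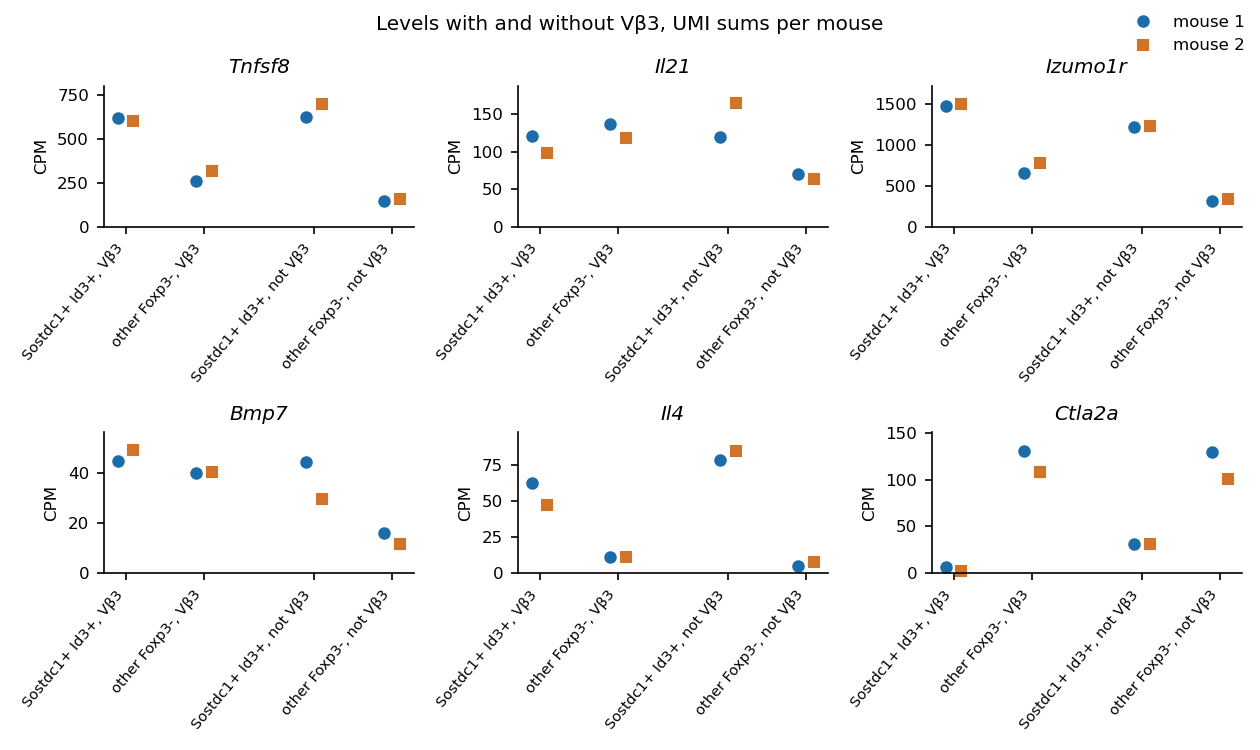
CPM of 6 genes in Sostdc1+ Id3+ and other Foxp3- cells with and without Vβ3, from UMIs summed per mouse (1 point for each mouse, no error bars). Tnfsf8 and Izumo1r are higher in other Foxp3- cells with Vβ3 than without, Izumo1r is also higher with Vβ3 among Sostdc1+ Id3+ cells (1472 and 1501 CPM against 1210 and 1233 CPM), and Il21 exceeds its level in other Foxp3- cells only without Vβ3.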

How the data were processed

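Gene expression and T cell receptor libraries of 2 mice were analysed. Per the submitters' processing notes, the authors used Cell Ranger 7.0.1 and the builds mm10 and GRCm38. The deposited matrices hold raw UMI counts per gene and barcode, and the deposited contig tables hold read and UMI counts, V and J calls and CDR3 nucleotides per contig. Whether reads in introns or on the opposite strand were counted is not given in the sources used here.

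UMIs were summed per mouse and class of cells (3709029 and 4078735 UMIs in Sostdc1+ Id3+ cells, 27870723 and 31568357 in other Foxp3- cells) and tested with edgeR 4.0.16 (R 4.3.3): TMM factors, filterByExpr, quasi-likelihood F test with Benjamini-Hochberg adjustment over all genes tested, called below an adjusted p of 0.05. Each fit had 4 sums and 1 residual degree of freedom (8 sums for the difference between V classes), so precision rests on the spread shared across genes. The mouse was a block because both classes of a pair came from the same mouse. Sostdc1, Id3, Foxp3 and the receptor V, D and J segments stayed in the totals and out of the tests. CPM are counts per 1000000 UMIs. Barcodes with 2 TRB contigs (708 and 702) were left out, and no doublet caller was run. The files hold 9996 and 9733 barcodes, of which 9860 and 9642 met the limits on genes and mitochondrial UMIs.

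Genes named are the 8 largest increases and decreases among called genes whose sign was shared by the mice and whose level reached 20 CPM in a class (5 in further comparisons), 2 genes with the smallest p of each list, and a fixed set of helper and effector genes; others are list members named to describe a list. Some genes that this rule names are not reported here. The cells, their markers and the 29 gene lists were chosen with earlier results of these data known. Shares have Clopper-Pearson intervals of 95%. A count of 0 was set at a floor of 3. Simulated counts with 200 changed genes gave every gene the same spread. There the test of Sostdc1+ Id3+ against other Foxp3- cells recovered 82.7% of the genes changed by 1 on the log2 scale. It recovered 54% of those changed by 0.5, with 1 false call among 12464 genes. Within clonotypes the test recovered 65.6% and 9.38%, with 8 false calls among 8217 genes. False calls among genes of unequal spread were not measured. Alternatives were DESeq2 1.42.0, other size factors, no filter, no block, 1 cell per clonotype, at least 2 UMIs, a narrower depth range, thinning to 3000 UMIs and subsets of cells. Python 3.11.15 with pandas 2.3.3, numpy 2.4.6 and scipy 1.17.1 was used.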

Additional observations from a re-analysis of the deposited data

Results flagged for a closer look

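The log2 fold change of Sostdc1+ Id3+ over other Foxp3- cells differed between Vβ3 cells and cells without Vβ3 for 26 of the named genes. This was by edgeR's test of the difference (adjusted p below 0.05), which called 145 of all 11554 genes (1.25%). Among the 26, the 5 largest differences of each sign were named because they passed this test. The count of 26 is therefore no result about the named genes. Among helper genes the difference was -1.32 for Il4, -1.29 for Il21, -1.02 for Tnfsf8, -0.712 for Bcl6, -0.677 for Cxcr5, -0.573 for Icos, -0.515 for Slamf6, -0.50 for Tcf7 and -0.488 for Tox2, each a smaller increase, or none, with Vβ3. It was -1.63 for Padi4, -1.13 for Bmp7, -0.792 for Izumo1r, -0.627 for Nt5e and -0.366 for Ifi27l2a. Il4 was at 62.5 and 47.2 CPM in Vβ3 Sostdc1+ Id3+ cells and 11.1 and 11.1 CPM in other Vβ3 Foxp3- cells, and without Vβ3 at 78.7 and 84.9 CPM in Sostdc1+ Id3+ cells and 4.83 and 8.0 CPM in other Foxp3- cells. Bmp7 was at 44.7 and 49 CPM in Vβ3 Sostdc1+ Id3+ cells and 39.7 and 40 CPM in other Vβ3 Foxp3- cells, and without Vβ3 at 44.2 and 29.4 CPM in Sostdc1+ Id3+ cells and 15.9 and 11.8 CPM in other Foxp3- cells.

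The largest differences of either sign were -4.81 for Gcg, -2.89 for Ctla2a, -2.03 for Ifi211, -1.88 for Lancl3 and -1.85 for Coro2b, and 4.05 for Prr5l, 1.69 for Ccl3, 1.43 for Hmgcs1, 1.42 for Galnt10 and 1.08 for Ifngr1. For Selplg it was 0.471. The values of Gcg and Prr5l rest on few UMIs and are not fold estimates: Gcg had 3 and 2 UMIs in Vβ3 Sostdc1+ Id3+ cells, and Prr5l 1 and 1 in Sostdc1+ Id3+ cells without Vβ3. Ctla2a was at 6.1 and 2.72 CPM in Vβ3 Sostdc1+ Id3+ cells and 131 and 108 CPM in other Vβ3 Foxp3- cells, and without Vβ3 at 31.6 and 31.5 CPM in Sostdc1+ Id3+ cells and 129 and 100 CPM in other Foxp3- cells. None of the 26 passed without the mouse as a block, and 19 passed with DESeq2.

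Barcodes outside the kept cells also met the gene part of the choice. Among barcodes with no receptor contig, 313 of 2901 in mouse 1 (10.8%, 95% interval 9.68 to 12) and 218 of 2405 in mouse 2 (9.06%, 7.95 to 10.3) had Sostdc1 and Id3 and no Foxp3. Among barcodes with 2 or more beta contigs the share was 13.1% and 10.7%, and among kept cells 11.0% and 10.2%. They enter no comparison.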

How the results depend on the processing

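The count of called genes moved by over 1.5 times under some settings. For Sostdc1+ Id3+ against other Foxp3- cells (4658) it was 1913 with DESeq2, 2434 with the choice made at 3000 UMIs, 2740 with no replicate block and 1980 among TRBV26 cells, and between 3215 and 4838 under the other settings. Against Id3-only cells (2593) it was 554 with DESeq2, 724 with the choice at 3000 UMIs, 860 between 4000 and 8000 UMIs and 968 with no block. Within clonotypes (606) it was 47 with DESeq2 and 182 with no block. For Vβ3 against other Sostdc1+ Id3+ cells (61) it was 108 with 1 cell per clonotype and 10 with DESeq2. For the difference between V classes (145) it was 92 with DESeq2 and 0 with no block (edgeR, 736 at an unadjusted p below 0.05). For V genes (1) it was 11 by clonotypes and 2 with no block. The cause was not tested; thinning and subsets leave fewer cells.

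Of 70 named genes in the main comparison, 3 reversed under a setting: Ighm (-0.068 with 1 cell per clonotype, adjusted p 0.565), Il21 (-0.22 among TRBV26 cells) and Il2 (-1.33 without Mki67 or Top2a cells, adjusted p 0.00165). With no replicate block 67 of 70 kept their call, and within clonotypes 7 of 10, where Il4 had an adjusted p of 0.0509. The share of Sostdc1+ Id3+ cells, 10.6%, was 7.89% with the choice at 3000 UMIs, their TRBV26 share was 55.3% and their share in single-cell clonotypes 57%. Leaving out a mouse gave 10.2% to 11.0%, 54% to 54.6% and 55.2% to 56.0% for these shares; counts of called genes could not be fitted with 1 mouse, for lack of residual degrees of freedom. The log2 fold change (pseudocount 1 CPM, no test) of the remaining mouse was over 1 SD from the fitted value for 23 and 27 of the 70 named genes without mouse 1 and mouse 2, 4 and 3 of 10 within clonotypes, 4 and 4 of 10 against Id3-only cells and 2 and 4 of 10 between V classes, and it reversed for none of the called genes. Settings for mitochondrial share, antigen-presenting cell UMIs and the last barcode per clonotype were chosen after seeing the data. With 2 mice and 1 library each, mouse, library and donor cannot be told apart.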
